A study of Gallus gallus with 4 samples.

Results

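The genes described here were strongly more abundant in prehierarchical than in preovulatory granulosa cells of the chicken, whichever plasmid the cells had received. Granulosa cells are the somatic cells that line the ovarian follicle around the oocyte. A gene was chosen when its preovulatory level was at least 4-fold below its prehierarchical level with the control plasmid and also with the FOXL2 plasmid, on the scale of FPKM + 1 (fragments scaled by transcript length and library size, plus a pseudocount of 1), and when its mean over the 4 libraries was at least 1 FPKM. This rule chose 115 of 10639 genes past the filter on the mean, out of 13819 genes listed in any table. The filter could not remove a gene that met the fold criteria, since on the scale of FPKM + 1 those criteria already require a mean above it. The same 115 genes are therefore chosen without it.

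The study put 2 phases of follicle growth beside each other, each with and without added FOXL2, in 4 libraries of 1 per group. The prehierarchical groups were cells of small yellow follicles (SYF) and the preovulatory groups were cells of the hierarchy's F2-F4 follicles, all from chickens of 26 weeks; no strain is given in the sources used here. Within each phase, the control group received empty pcDNA3.1 and the other group pcDNA3.1-FOXL2, both with Lipofectamine after 18 h of culture at 39°C in M199 medium with 5% foetal bovine serum, and RNA was taken 48 h after transfection. All cells were therefore cultured and transfected, and no group holds untransfected or uncultured cells. Whether a library held the cells of 1 hen, 1 culture or a pool is not stated, and transfection efficiency is not given.

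In the hen, granulosa cells of prehierarchical follicles are held in an undifferentiated state and produce little steroid. When a follicle is selected into the hierarchy, its granulosa cells begin to respond to gonadotropins through cyclic AMP and become the main source of progesterone, and genes of the earlier state, such as that for anti-Müllerian hormone, decline. FOXL2 is a forkhead transcription factor that marks granulosa cells and takes part in ovarian differentiation and steroid production.

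Genes are given by their Ensembl identifiers, because the files do not pair these with symbols and 0 of the 115 identifiers were found in the reference gene table used here. The functions of the genes, the level of FOXL2 itself and markers of granulosa, theca and other cell types were therefore not analysed here, and the label of the cells has no check from its markers. In RNA from whole cultures, fewer cells of a type and less RNA per cell cannot be told apart, and the same holds for phase and cell preparation where each phase was prepared apart. The tables listed 12600 to 12724 genes per library. Fragment numbers were not used. Among 447 genes with a single transcript that were missing from at least 1 table, and whose 2 lowest listed values lay within 5% of each other, the lowest value had a median of 0.23 FPKM (quartiles 0.13 and 0.37). If that value is 1 fragment, 1 FPKM stands for about 4.35 fragments in such genes.

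Most of the chosen genes exceeded the median of all genes in prehierarchical cells, and few did in preovulatory cells. With the control plasmid their median was 33.4 FPKM in prehierarchical cells (lowest 4.47, highest 1169) and 2.28 FPKM in preovulatory cells (lowest 0, highest 139.6). With the FOXL2 plasmid the medians were 33.6 FPKM (4.94 to 1161) and 2.40 FPKM (0 to 125.1). For all genes past the filter, the medians of the same 4 libraries lay between 15.1 and 18.6 FPKM. In prehierarchical cells 82 of the 115 exceeded the median of all genes with the control plasmid and 80 with FOXL2, against 8 and 7 in preovulatory cells. The 115 genes together held 1.62% of all FPKM in the prehierarchical control library and 1.64% in the one with FOXL2. In preovulatory cells these shares were 0.153% and 0.154%. These levels are what the rule selected on, so they describe the genes and test nothing.

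**Figure D1:**
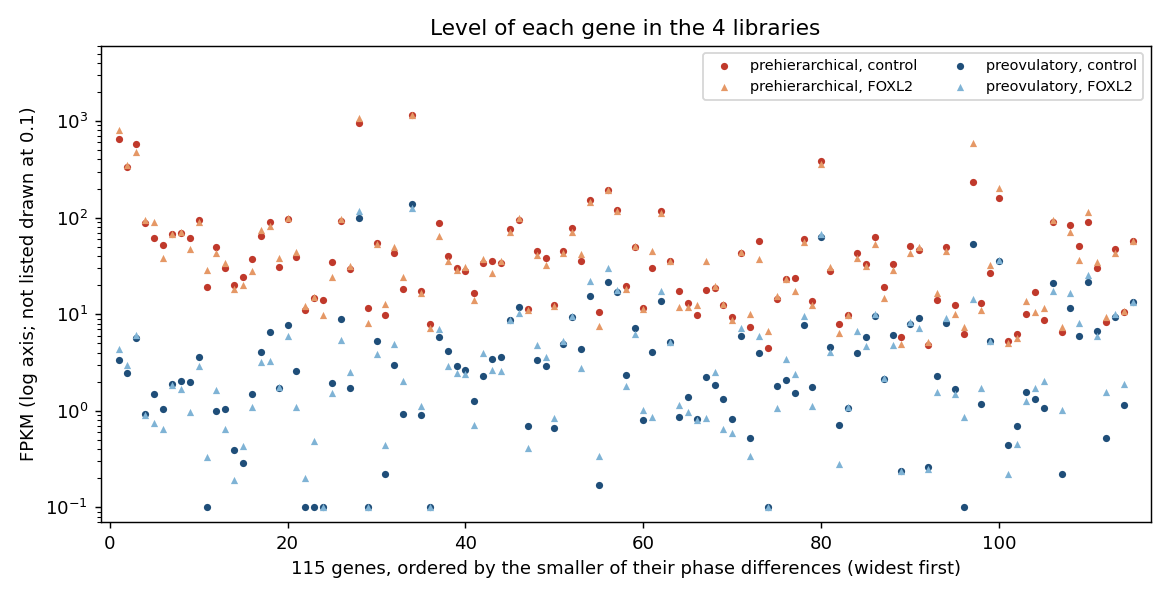
Level of each of the 115 genes (FPKM, log axis) in the 4 libraries, with genes ordered by the smaller of their 2 phase differences; circles are control and triangles FOXL2 libraries, and a gene missing from a table is drawn at 0.1. The prehierarchical points (red and orange) lie above the preovulatory points (blue) for each gene, as the rule requires, and the highest level is 1169 FPKM.

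By phase, 185 of 10639 genes met the fold criterion with the control plasmid (1.74%) and 209 with FOXL2 (1.96%), and the 115 that met both are 62.2% of the former and 55.0% of the latter. The remaining 70 and 94 genes met it with 1 plasmid alone. For 118 of these 164, the other plasmid still gave a log2 ratio of -1 or lower, and for 20 the ratio with the other plasmid was above 0. Genes just inside the threshold differed little from genes just outside it. The chosen gene nearest to the threshold stood at 57.1 and 56.6 FPKM in the prehierarchical control and FOXL2 libraries and at 13.4 and 13.4 FPKM in the preovulatory ones, with log2 ratios of -2.012 and -2.002. The nearest gene outside stood at 299.2 and 347.6 against 74.2 and 74.1 FPKM, with log2 ratios of -1.997 and -2.22.

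The median phase log2 ratio (preovulatory over prehierarchical) of the chosen genes was -2.95 with the control plasmid and -2.85 with FOXL2, against 0.17 and 0.23 for all genes past the filter. Because the median of all genes was itself above 0, a gene at the threshold was 4-fold lower as deposited and somewhat further below the typical gene. Without a pseudocount, the prehierarchical level was 10.4 times the preovulatory level at the median of the 107 genes that both control tables list (lowest 4.21, highest 194.4). The median was 10.7 times for the 111 genes that both FOXL2 tables list (4.23 to 186.9). Both phase log2 ratios were at most -3 for 37 genes, at most -4 for 12 and at most -6 for 3. The opposite group, at least 4-fold higher in preovulatory cells with both plasmids, held 33 genes (0.31% of all, against 1.08%), and 3 of them reached a log2 ratio of 3 with both plasmids and 0 reached 4. The difference in number between these groups has no test with 1 library per group.

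**Figure D2:**
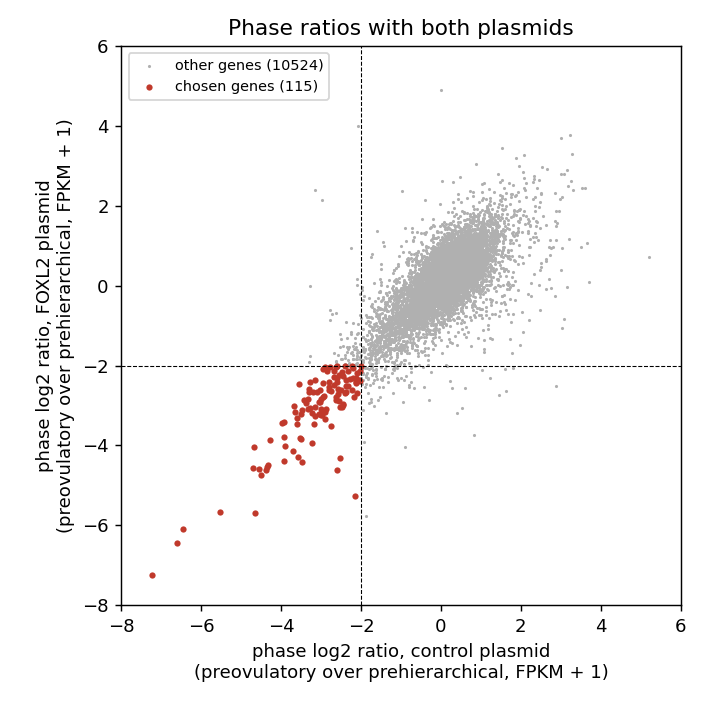
Phase log2 ratio of FPKM + 1 (preovulatory over prehierarchical) with the control plasmid (horizontal axis) and with FOXL2 (vertical axis) for 10639 genes; the 115 chosen genes are red and dashed lines mark the threshold of -2. The chosen genes form a tail that reaches log2 ratios of -7.23 and -7.25, and 1 red point near a control ratio of -2.14 has a FOXL2 ratio of -5.27.

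The widest phase differences joined high prehierarchical levels to low preovulatory ones. ENSGALG00000022586 stood at 653.3 and 814.9 FPKM in the prehierarchical control and FOXL2 libraries, where it ranked 101 and 76 among all genes by FPKM. In preovulatory cells it stood at 3.36 and 4.36 FPKM, control before FOXL2, and ranked 9078 and 8729. Its prehierarchical level was thus 194.4 times the preovulatory level with the control plasmid and 186.9 times with FOXL2. ENSGALG00000006992 ranked 211 and 214 in the prehierarchical libraries at 335.6 and 347.2 FPKM, and 9454 and 9244 in the preovulatory ones at 2.48 and 2.99 FPKM. Both genes thus stood near the top of the prehierarchical lists and far down the preovulatory ones. The 12 genes with both log2 ratios at most -4 had prehierarchical means of 24.0 to 734.1 FPKM, and none of their preovulatory means was above 5.86 FPKM.

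The 2 genes with the highest prehierarchical means differed by about the group's median. ENSGALG00000026862 had the highest prehierarchical mean, at 1169 FPKM with control and 1161 with FOXL2, ranking 36 and 44. It was still at 139.6 and 125.1 FPKM in preovulatory cells, ranking 527 and 629, so that its prehierarchical level was 8.37 and 9.28 times the preovulatory one. ENSGALG00000007114 followed at 946.1 and 1066 FPKM, against 100.2 and 116.0 FPKM in preovulatory cells, ratios of 9.44 and 9.19. These were the 2 genes of the group that reached 100 FPKM in a preovulatory library. In each library, the 5 genes of the group most abundant there held 43.3% to 47.3% of the group's FPKM. They were not the same 5 genes in both phases.

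By prehierarchical level, 15 of the 115 genes had a mean under 10 FPKM, 37 from 10 to 30, 50 from 30 to 100 and 13 of at least 100 FPKM. Their median control phase log2 ratios in that order were -2.47, -2.87, -3.09 and -3.06, and those with FOXL2 were -2.37, -2.83, -2.97 and -2.67. The pseudocount bounds the ratio of low genes, so the smaller ratios of the lowest class are partly built in. The group made up 0.385% of all genes with a prehierarchical mean under 10 FPKM, 1.03% from 10 to 30, 2.16% from 30 to 100 and 1.58% at 100 FPKM and above. On the scale of FPKM + 1, the rule cannot choose the scarcest genes of the lowest class. The share of that class is therefore partly built in as well.

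**Figure D3:**
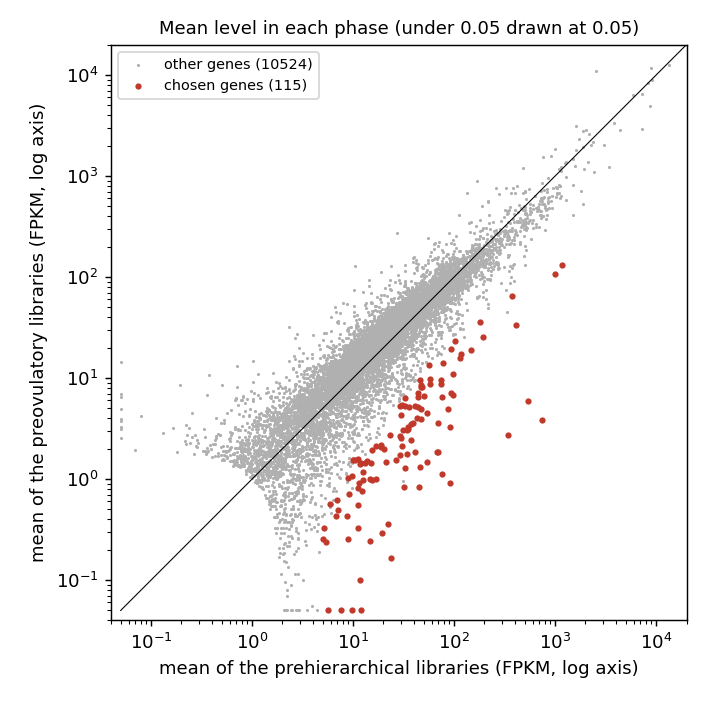
Mean FPKM of the prehierarchical libraries (horizontal, log axis) against that of the preovulatory libraries (vertical, log axis) for 10639 genes, with the 115 chosen genes in red, the diagonal as the line of equal levels, and means under 0.05 drawn at 0.05. The chosen genes run below the main cloud over the whole range of prehierarchical means from under 10 FPKM to over 100 FPKM, and 4 of them lie on the floor of the preovulatory axis.

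In preovulatory cells many of the genes were near the limit of what the tables list. With the control plasmid 30 of the 115 were under 1 FPKM and 79 under 5 FPKM, and with FOXL2 the counts were 32 and 80. The tables of both preovulatory libraries lack 4 of the genes, whose prehierarchical levels were 4.47 to 14.2 FPKM with control and 6.75 to 9.69 with FOXL2. Another 4 are missing from the preovulatory control table alone and are listed with FOXL2 at 0.20 to 0.87 FPKM. Values of this size may stand for a few fragments, so plasmid ratios that rest on them are uncertain. The other 107 genes are listed in all 4 tables.

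The rule did not use the number of transcripts per gene. More than 1 transcript is given for 9 of the 115 genes (7.83%), against 5.21% of all genes past the filter.

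On the scale of FPKM + 1, nearly all of these genes stood within 2-fold between the FOXL2 library and its control in each phase. The plasmid ratios are not the contrast of the rule, but by asking for the phase difference with both plasmids the rule leaves out genes whose phase difference closes with 1 of them. In prehierarchical cells, the FOXL2 level was at least 2-fold above control for 1 of the 115 genes (1.06% of all genes) and at least 2-fold below it for 0 (0.658% of all genes). Together this is 0.870% of the group, against 1.72% of all genes. These shares are not matched for level. Of all genes, 3.55% were 2-fold apart at a prehierarchical mean under 10 FPKM, where 15 of the 115 lay. At 10 to 30, 30 to 100 and at least 100 FPKM, 0.748%, 0.562% and 0.606% of all genes were. In the group the log2 ratios ran from -0.64 to 1.33 with a median of -0.03, where the median of all genes was -0.05. Within 0.5 log2 units of 0 lay 90.4% of the group and 89.1% of all genes. These shares are near each other but are not matched for level either. Under 10 FPKM, 1 of 15 genes of the group lay 0.5 or more from 0, against 19.4% of all genes. At 10 to 30, 30 to 100 and at least 100 FPKM, 6 of 37, 3 of 50 and 1 of 13 did. The shares of all genes at those levels were 7.51%, 4.45% and 4%.

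In preovulatory cells, the FOXL2 level was at least 2-fold above control for 0 of the 115 genes (0.498% of all genes) and at least 2-fold below it for 2 (0.949% of all genes). Together this is 1.74% of the group, against 1.45% of all genes. These shares are not matched for level. At a preovulatory mean under 1 FPKM, 0 of 29 genes of the group were 2-fold apart, against 3.61% of all genes. At 1 to 5 FPKM 1 of 50 was, against 4.63%, and at 5 FPKM and above 1 of 36, against 0.702%. The pseudocount of 1 bounds these counts. A gene under 1 FPKM with control cannot be 2-fold lower, which applied to 30 of the 115. One under 1 FPKM with FOXL2 cannot be 2-fold higher, which applied to 32. In the group the log2 ratios ran from -1.80 to 0.90 with a median of 0, equal to that of all genes. The upper end is a gene that the control table does not list, and over the 107 genes in both preovulatory tables the highest ratio was 0.75. With a pseudocount of 0.1 FPKM, 12 of the 115 genes were 2-fold apart, 7 higher and 5 lower (10.4%, against 3.56% of all genes). These shares are not matched for level either. A ratio within 0.5 log2 units of 0 was found for 83.5% of the group and 90.3% of all genes. The genes past 0.5 in the group were mostly low, with 16 of 19 at a preovulatory mean under 5 FPKM. Under 1 FPKM, 3 of 29 of the group were past 0.5, against 25.9% of all genes. At 1 to 5 FPKM, 13 of 50 were, against 22.4% of all genes. At 5 FPKM and above, 3 of 36 of the group had such a ratio (8.33%), and 6.42% of all genes of that level did.

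**Figure D4:**
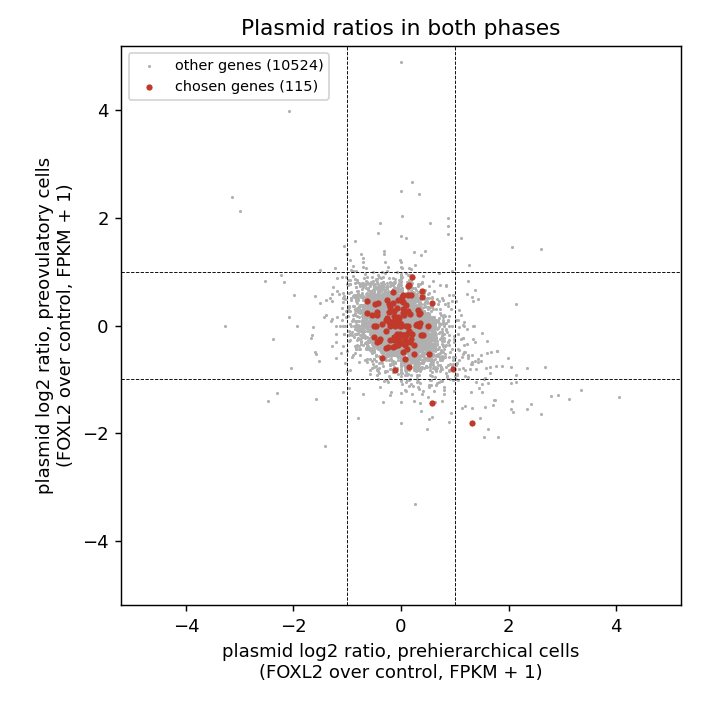
Plasmid log2 ratio of FPKM + 1 (FOXL2 over control) in prehierarchical (horizontal axis) and preovulatory cells (vertical axis) for 10639 genes, with the 115 chosen genes in red and dashed lines at 2-fold. All red points but 2 lie inside the 2-fold square; the farthest, at 1.33 and -1.80, is ENSGALG00000023933.

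ENSGALG00000023933 departed most from the others. In prehierarchical cells it stood at 235.8 FPKM with control and 592.6 with FOXL2, a ratio of 2.51 and a log2 ratio of 1.33. In preovulatory cells it stood at 52.7 FPKM with control and 14.4 with FOXL2, a ratio of 0.273 and a log2 ratio of -1.80. The FOXL2 library was thus the higher one before selection and the lower one after it. Its prehierarchical level was 4.47 times the preovulatory level with control and 41.2 times with FOXL2. Of all 10639 genes, 39 (0.367%) were 2-fold apart in both phases in opposite directions, and this was the 1 gene of the group among them.

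ENSGALG00000013993 had the next highest prehierarchical plasmid ratio, at 17.7 FPKM with control and 35.7 with FOXL2 and a log2 ratio of 0.98. In preovulatory cells it stood at 2.22 and 0.85 FPKM, a log2 ratio of -0.80. The lowest prehierarchical plasmid ratios belonged to ENSGALG00000008901, at 16.9 FPKM with control and 10.5 with FOXL2, and to ENSGALG00000006658, at 57.7 and 36.9 FPKM. Their log2 ratios were -0.64 and -0.63, short of 2-fold, and in preovulatory cells both had ratios above 0, at 0.23 and 0.47.

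Among the 36 genes with a preovulatory mean of at least 5 FPKM, ENSGALG00000027380 and ENSGALG00000014970 had the highest preovulatory plasmid ratios. The former stood at 3.98 FPKM with control and 6.65 with FOXL2, a log2 ratio of 0.62, and the latter at 15.5 and 22.1 FPKM, a log2 ratio of 0.48. After ENSGALG00000023933, the lowest ratio was that of ENSGALG00000005135, at 8.86 and 5.41 FPKM and a log2 ratio of -0.62. None of these 3 was 2-fold apart. The second gene of the group that was 2-fold lower was a scarcer one, ENSGALG00000006775, at 4.04 FPKM with control and 0.86 with FOXL2, a log2 ratio of -1.44. In prehierarchical cells it stood at 29.7 and 45.0 FPKM, a log2 ratio of 0.58. With a pseudocount of 5 FPKM its preovulatory log2 ratio was -0.63, under 2-fold.

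The plasmids went the same way in both phases for 51 of the 115 genes, above 0 in both for 26 and below 0 in both for 25. They went opposite ways for 59, with FOXL2 higher in prehierarchical and lower in preovulatory cells for 28 and the reverse for 31; 5 genes had a preovulatory ratio of 0. Of all 10639 genes, 1660 were above 0 in both phases and 2453 below 0 in both. FOXL2 was higher in prehierarchical and lower in preovulatory cells for 2832 of all genes, and the reverse held for 3615. Opposite ways were thus taken by 51.3% of the group, and by 60.6% of all genes. The Pearson r of the 2 plasmid ratios across the 115 genes was -0.28, with a Spearman rho of -0.06, against -0.35 and -0.32 across all 10639 genes. Without ENSGALG00000023933 the Pearson r of the group was -0.13 across 114 genes. These are correlations across genes of the same 4 libraries, and genes are not independent replicates. The gap between the 2 phase ratios of a gene equals the gap between its 2 plasmid ratios. By asking for both phase ratios, the rule can leave out genes with large opposite plasmid ratios. The smaller opposite share and weaker correlations of the group may partly follow from the rule, so they test nothing.

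The phase log2 ratios with control and FOXL2 lay within 0.5 of each other for 82 of the 115 genes (71.3%), a share near that of all genes (73.7%). The FOXL2 ratio was the less negative for 60 genes and the more negative for 55. Of all 10639 genes, the FOXL2 ratio was the higher for 5873 and the lower for 4766. A gap of at least 2-fold between the phase ratios was found for 5 genes (4.35%, against 6.27% of all genes). The FOXL2 ratio was the more negative for 4 of them (3.07% of all genes) and the less negative for 1 (3.2% of all genes). Those 4 were ENSGALG00000023933 (gap in log2 ratio of -3.13), ENSGALG00000006775 (-2.02), ENSGALG00000013993 (-1.77) and ENSGALG00000007129 (-1.04), the last of which was named after its values had been seen. ENSGALG00000007129 stood at 62.1 and 89.6 FPKM in the prehierarchical control and FOXL2 libraries and at 1.5 and 0.74 FPKM in the preovulatory ones. The gene with the narrower difference under FOXL2 was ENSGALG00000006658, at 57.7 and 36.9 FPKM in prehierarchical against 3.99 and 5.89 FPKM in preovulatory cells, a gap of 1.10. With a pseudocount of 5 FPKM the gaps of ENSGALG00000006658 and ENSGALG00000007129 were 0.86 and -0.67, both under 2-fold, and that of ENSGALG00000006775 was -1.15 and that of ENSGALG00000013993 was -1.15. ENSGALG00000016139 came next on that side, at 51.4 and 36.5 against 5.98 and 8.19 FPKM, and its gap of 0.88 was under 2-fold. Since the rule used both phase ratios, this gap is a description.

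A plasmid difference shared by both phases was tested with an additive limma model of phase and plasmid on log2(FPKM + 1), fitted over all 10639 genes. At a Benjamini-Hochberg adjusted p under 0.05 it called 0 genes of the group and 0 of all genes (0%). At an unadjusted p under 0.05 it gave 0 of the 115 and 112 of all genes (1.05%). Its estimates for the 107 genes of the group listed in all 4 tables ran from a log2 difference of -0.48 to 0.52 with a median of -0.04. The smallest unadjusted p in the group was 0.0513, for ENSGALG00000016709 at a log2 difference of -0.48 (SE 0.19), which did not pass the adjustment. That gene stood at 61.0 and 47.4 FPKM in prehierarchical and 1.99 and 0.98 FPKM in preovulatory cells, control before FOXL2, and was named after its values had been seen. The model has 1 residual degree of freedom per gene, and that residual is the difference between the plasmid ratios of the phases. A plasmid effect that differs between phases therefore widens the error. The deposited headers carry an added number of unstated meaning for the preovulatory control and prehierarchical FOXL2 libraries. A difference that follows this number would widen the error in the same way, and these cannot be told apart. The error of a gene was also moderated towards that of genes of similar mean, and it does not measure the spread between cultures.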

How the data were processed

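Each of the 4 libraries has 1 table of FPKM values per Ensembl gene, made by the authors and deposited per library. The submitters' processing notes name Bowtie, RSEM and build galGal4; no version, parameter or strand use was found. RSEM divides fragments among similar transcripts, which leaves near-identical copies uncertain. The tables list values from 0.01 FPKM, and missing genes were set to 0. Depth is unknown in absolute terms and no counting interval is given.

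Tables were joined on gene identifier, the mean over the 4 libraries had to reach 1 FPKM, and ratios were taken of FPKM + 1 with no scaling between libraries. This understates the fold of low genes. The members and all lists were chosen with earlier results of these data known. Genes are named by a fixed rule: the 2 widest phase differences, the 2 highest prehierarchical means, and the 2 highest and 2 lowest plasmid ratios of each phase and gaps between phase ratios, where the libraries compared had a mean of 5 FPKM or more; exceptions are marked in the text. With 1 library per group, folds are descriptions. The additive fit used limma 3.58.1 in R 4.3.3 with variances moderated along the mean, and was run on simulated data. Those data held no phase difference and no plasmid effect that differed between phases, and scarce genes were left unchanged. They therefore do not show how the fit performs on the genes described here. Other values came from Python 3.11.15 (numpy 2.4.6, pandas 2.3.3), and figures from matplotlib 3.10.9. The alternatives were pseudocounts of 0.1 and 5 FPKM, equal library medians, no filter, a filter of 5 FPKM, and limma without the mean trend.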

Additional observations from a re-analysis of the deposited data

Results flagged for a closer look

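ENSGALG00000023933 was singled out because its single library pair moved up with FOXL2 in prehierarchical cells (log2 ratio 1.33) and down in preovulatory cells (-1.80), each by at least 2-fold, so that the ratios differed by 3.13. With 1 library per group the difference between the phases was not tested. The libraries in which it was higher within a phase were preovulatory control and prehierarchical FOXL2. These are also the libraries whose value columns carry an added number in the deposited headers. ENSGALG00000006775, ENSGALG00000013993 and ENSGALG00000007129 were higher in the same libraries. In all, 28 of the 115 genes were higher in these libraries within both phases, and 31 were lower in them. Of all 10639 genes, 2832 were higher and 3615 lower. What the added number marks is not stated. With 1 library per group, a difference that follows it cannot be told apart from a plasmid ratio that differs between phases. Its part in these results was not tested.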

How the results depend on the processing

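The number of genes chosen depended on the scale. The 115 became 240 with a pseudocount of 0.1 FPKM, 53 with 5 FPKM and 173 with library medians set equal. The last count rose because the medians were higher in preovulatory cells, so that equal medians lowered each phase ratio. With control and FOXL2 they were 18.35 and 18.57 FPKM there, against 15.88 and 15.11 FPKM in prehierarchical cells. All 115 were among the 240 and the 173, and all 53 were among the 115. With a filter of 5 FPKM, 101 were left. Of the 115, the genes 2-fold apart by plasmid numbered 2 in prehierarchical cells with a pseudocount of 0.1 FPKM (1.74%, all genes 3.67%) and 2 with equal medians (1.74%, all genes 1.75%), where 1 was reported. In preovulatory cells they numbered 12 with 0.1 FPKM (10.4%, all genes 3.56%) and 1 with 5 FPKM (0.870%, all genes 0.254%), where 2 were reported. Phase ratios at least 2-fold apart between plasmids numbered 15 with 0.1 FPKM (13.0%, all genes 10.4%) and 3 with 5 FPKM (2.61%, all genes 1.89%), where 5 were reported. None of these shares is matched for level. Limma called 0 of the genes under each of the 6 other settings. Its unadjusted p was under 0.05 for 4 of them without the mean trend (1.65% of all genes). With a pseudocount of 0.1 FPKM this held for 3 (1.02% of all genes). It held for 1 with equal medians (1.21% of all genes) and 1 with no filter (1.60%). With a pseudocount of 5 FPKM it held for 0 (1.09% of all genes), and with a filter of 5 FPKM for 0 (0.804%). Of the 52 phase and plasmid ratios of the genes named by the rule, 4 moved by over 1.5-fold with 0.1 FPKM and 14 with 5 FPKM. None that was at least 2-fold changed sign. A pseudocount or a filter cannot change the sign of a ratio, so only equal medians could have done so. The limma fit has phase as a term and so compares the plasmids within phases; no further pairing could be made with 1 library per group, and none could be left out. Many preovulatory values are low, which limits their precision.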
